A study of Canis lupus familiaris with 29 samples.

Results

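The comparison described here is the effect of U0126 on MDCK cells grown in 2D and treated with hepatocyte growth factor (HGF). Its members are the 3 arrays of 2D cells given HGF with U0126 and the 4 arrays of 2D cells given HGF alone, chosen by their titles, 7 of the 29 arrays in the series. MDCK type II is an established dog kidney epithelial line, and the 2D cultures were grown on transwell filters. Every cell of both groups received HGF, so the comparison measures what U0126 changed in the presence of the growth factor. Beside it stand 4 arrays of untreated 2D control cells, 4 of 2D cells given HGF with PD-98059, and the same U0126 comparison in 3D culture (3 arrays with U0126 against 4 with HGF alone). Neither inhibitor was given without HGF in the samples used here, and no source used here states a dose or a time. Nothing says that arrays of a group came from separate cultures, so p-values measure only the spread between arrays, which may be technical.

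HGF binds the receptor tyrosine kinase MET, which activates the RAS, RAF, MEK and ERK kinase cascade among other routes. ERK phosphorylates transcription factors and so induces immediate early genes, and it also induces phosphatases that switch it off. In MDCK cells HGF is known for loosening cell contacts, scattering cells in 2D and inducing tubules in 3D. U0126 and PD-98059 are both small molecules used to block MEK.

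Levels are log2 values per probe set, and a gene is read from its tested probe set with the highest mean over all arrays. A change is a difference of group means with its standard error (SE) from limma, fitted over all 29 arrays, and "rose" or "fell" means a Benjamini-Hochberg adjusted p under 0.05. Group means under log2 5 are referred to as dim, and folds that involve them are uncertain. Of 16571 probe sets tested, 8295 passed (50.1%), 4269 of them higher with U0126 (25.8%) and 4026 lower (24.3%). Over 7052 named genes, 1763 rose (25%) and 1893 fell (26.8%), together 51.8%, with a median change of -0.01. The arrays of the 2 groups did not overlap in 4124 genes (58.5%) or in 9382 probe sets (56.6%). A gene list of which about that share passed is at the background of this comparison.

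Arrays within a group were close, with correlations of 0.990 to 0.994 in the HGF group and 0.987 to 0.993 in the U0126 group. On the first principal component of the 2D arrays, which held 65.2% of the variance, the HGF arrays lay at 81.47 to 89.88 and the U0126 arrays at -34.89 to -26.80, within a range shared with the control and PD-98059 arrays. On the second (16.6%) the U0126 arrays spread from 6.18 to 30.28, replicate 2 being the highest. There the control arrays lay apart from them, at -41.28 to -33.91. The PD-98059 arrays lay at 24.28 to 33.62 and the HGF arrays at -9.51 to 7.96. RNA quality was read from control probe sets along 3 transcripts (ACTB, GAPDH and EEF1A1), as the 3' level minus the 5' or middle level, averaged; this index was 0.838 ± 0.0476 (SD, n = 4) with HGF and 1.31 ± 0.134 (SD, n = 3) with U0126. The difference of 0.477 had p = 0.02857 in an exact two-sided permutation test, the smallest p that this design allows. Most of that difference came from ACTB, at 1.77 with HGF and 3.21 with U0126. GAPDH was at 0.358 and 0.492, and EEF1A1 went the other way, at 0.388 and 0.244. The averaged index was 1.44 in 2D control and 1.36 with PD-98059, and in 3D it was 1.68 with HGF and 1.61 with U0126, so the low index belonged to the 2D HGF group. Its part in the results that use that group was not tested beyond a fit with the index as a covariate. Of 15 kidney epithelial markers on the array, 8 reached log2 5 in both groups (CDH16, CLDN4, EPCAM, KRT18, KRT7, KRT8, OCLN and TJP1), whereas CDH1, PAX2, PAX8, UMOD and AQP2 were among those that did not. No fibroblast marker (0 of 9) and no endothelial marker (0 of 8) reached that level. Of 8 leukocyte markers CD68 alone did, at a mean of 5.77 with HGF and 2.84 with U0126. Outside the control probe sets, ACTB and GAPDH also stayed under log2 5 on every array (highest 2.23 and 4.09). A level under log2 5 therefore does not show that a transcript is absent.

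TIMP1, a secreted inhibitor of matrix metalloproteinases, fell the most among genes selected by size of change. It read 13.95, 13.84, 13.88 and 13.74 in the HGF arrays and 4.96, 5.08 and 4.97 with U0126. The control arrays lay at 5.97 to 6.23, so the HGF arrays stood far above every other 2D array. TIMP1 fell by 8.85 (SE 0.30, adjusted p = 3.79e-18), a 463-fold difference, and ended 1.12 (SE 0.30, adjusted p = 0.0105) below control. The collagenase MMP13 read 10.88, 10.39, 11.18 and 11.15 with HGF and 4.46, 2.58 and 2.58 with U0126. It fell by 7.70 (SE 0.37, adjusted p = 3.52e-15), and its 3 U0126 arrays were dim and differed among themselves by more than the HGF arrays did. ISG20, an interferon-induced exonuclease, read 9.08, 8.70, 8.64 and 8.80 with HGF and 1.63, 1.65 and 1.66 with U0126, a fall of 7.16 (SE 0.11). Its control arrays read 1.64 to 1.67, so among the 2D control, HGF and U0126 arrays those with HGF alone were above dim levels.

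Of the 15 largest falls, the others were S100A2, DSG3, ENTPD3, TFPI2, SNAP91, CDKN1A, MUC16, OLFM1, HEPH, ABCB4, DDX60 and MALL. S100A2, a calcium-binding protein, read 14.83 to 14.96 with HGF and 7.66 to 8.28 with U0126 and fell by 6.92. DSG3, a desmosomal cadherin typical of stratified epithelium, fell by 6.51 from 8.76 to 9.40 with HGF to 2.47 to 2.53 with U0126. CDKN1A encodes p21, an inhibitor of cyclin-dependent kinases. It read 12.18, 11.81, 12.06 and 12.26 with HGF and 6.59, 6.96 and 6.43 with U0126, and fell by 5.42 (SE 0.21, adjusted p = 3.36e-17). The control arrays of CDKN1A, at 5.74 to 6.59, overlapped the lower end of the U0126 arrays. With U0126, 10 of these 15 genes were dim.

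Among the genes that rose, CLTRN and PDZK1, which serve transport in the kidney tubule, changed the most. CLTRN (collectrin), which brings amino acid transporters to the apical membrane, read 4.07, 4.06, 4.56 and 4.32 with HGF and 10.23, 10.32 and 10.25 with U0126. It rose by 6.02 (SE 0.33, adjusted p = 5.81e-14), 64.7-fold, from a dim level to a level 0.05 (SE 0.33, adjusted p = 0.946) from control. PDZK1, an apical scaffold for transporters, read 6.98, 6.56, 7.91 and 7.04 with HGF and 13.02, 13.08 and 13.15 with U0126, and rose by 5.96 (SE 0.22, adjusted p = 1.05e-17). Its control arrays read 12.32 to 12.75, below all 3 U0126 arrays, though that difference of 0.48 did not pass (adjusted p = 0.139). DEPTOR, an inhibitor of the mTOR kinase, read 4.93 to 7.24 with HGF and 9.84 to 11.48 with U0126, and rose by 4.39 (SE 0.46). The others among the 15 largest rises were STEAP2, RGS22, ARHGAP24, FABP1, SCG5, DACH1, MGST1, CCDC30, C9H17orf97, AK8, DRC1 and CCDC160. DRC1, a subunit of the regulatory complex of motile cilia, rose by 4.23, and MGST1, a membrane glutathione transferase, by 4.36. With HGF alone 10 of the 15 were dim.

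**Figure D1:**
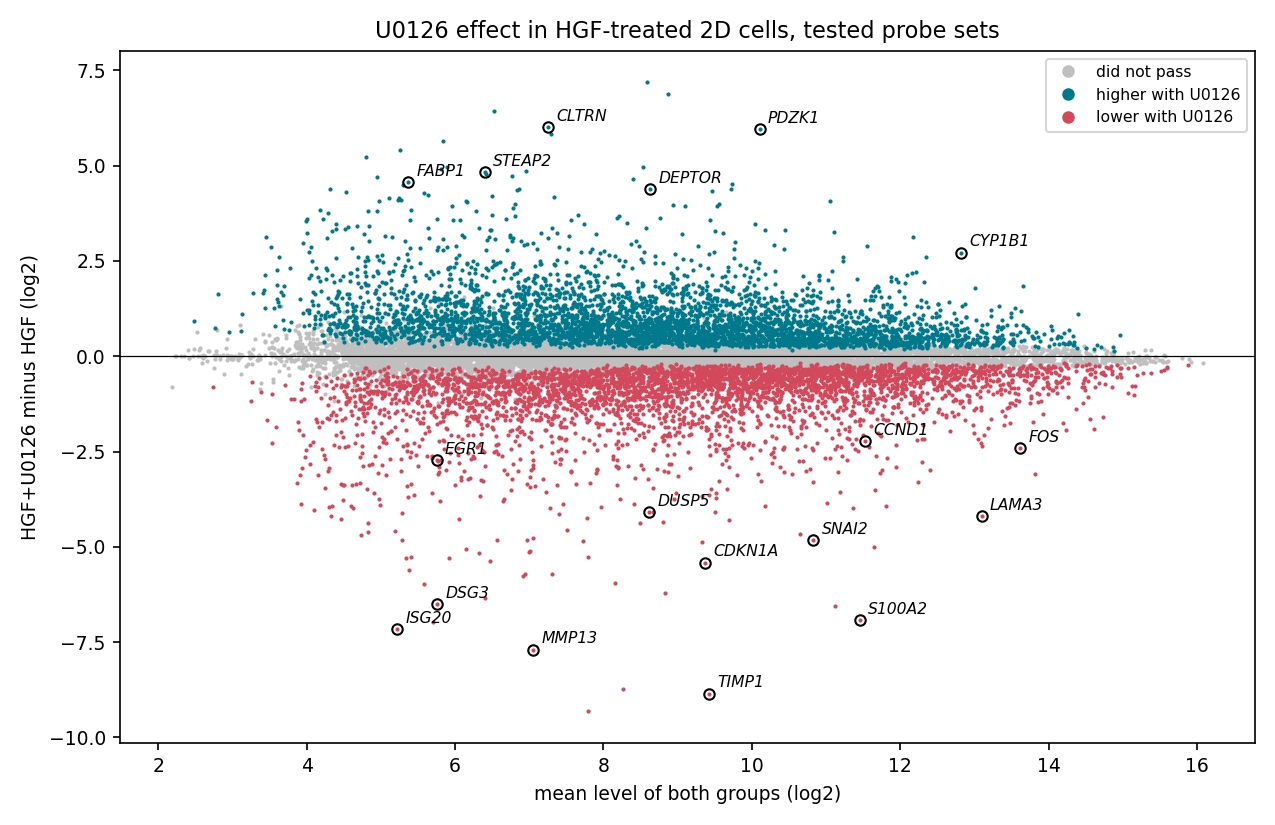
Difference between the U0126 and HGF groups (log2, y axis) against the mean level of both groups (log2, x axis), 1 point per tested probe set of 16571, coloured by whether it passed at an adjusted p under 0.05. Named genes are circled, with TIMP1 lowest at -8.85 and CLTRN and PDZK1 highest at 6.02 and 5.96 among those named; uncircled points are other probe sets.

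Levels in 12 genes are plotted by array below, where for most of them the HGF arrays stand apart from the other 3 groups. Those 3 groups were not always level, as TIMP1 and DUSP5 with U0126 ended below control.

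**Figure D2:**
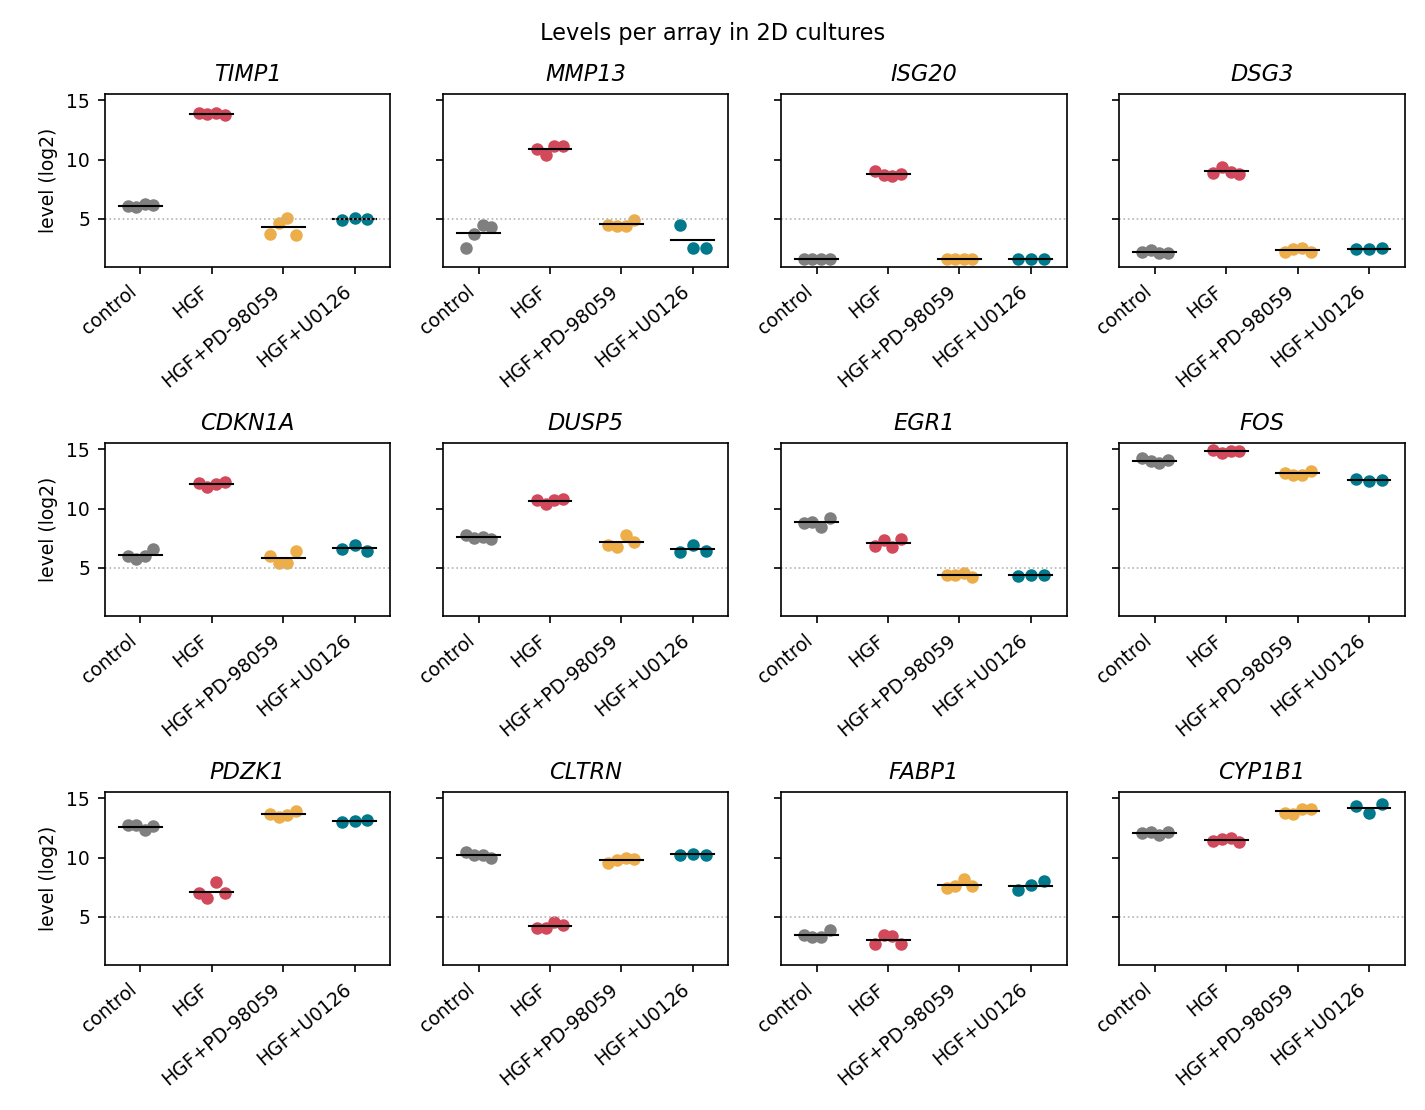
Level (log2, y axis) of 12 genes in each array of the 4 groups of 2D cultures (x axis); points are arrays, bars are group means and the dotted line marks log2 5. TIMP1, MMP13, ISG20, DSG3, CDKN1A and DUSP5 are high with HGF alone, EGR1 and FOS are lower with either inhibitor than in control, and FABP1 and CYP1B1 are higher with either inhibitor than in control or with HGF.

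The genes closest to ERK moved down together. In a list of 24 genes known to be induced by ERK signalling, 10 were tested and all 10 fell, with a median of -1.83 against -0.01 over all genes. DUSP5, a nuclear phosphatase that removes the activating phosphates from ERK, read 10.73, 10.42, 10.70 and 10.82 with HGF and 6.35, 6.89 and 6.47 with U0126. It fell by 4.10 (SE 0.21, adjusted p = 1.67e-14) and ended 1.02 below control (SE 0.21, adjusted p = 0.0012). DUSP6, the cytoplasmic counterpart, fell by only 0.72 (SE 0.10, adjusted p = 8.39e-07), from 13.47 to 13.55 with HGF to 12.65 to 12.96 with U0126. The DUSP6 arrays of the 2 groups did not overlap, and with U0126 the level was 0.35 above control (adjusted p = 0.0147), a call lost without U0126 replicate 3 (0.102) or control replicate 3 (0.0506). CCND1 (cyclin D1), which starts the passage through G1, read 12.78, 12.43, 12.59 and 12.74 with HGF and 10.29, 10.58 and 10.38 with U0126. It fell by 2.22 (SE 0.13, adjusted p = 8.69e-14), to within 0.03 of control. MYC, the growth-promoting transcription factor, fell by 1.41 (SE 0.14) and IER3, an early stress gene, by 1.43 (SE 0.18). EREG, an EGF receptor ligand, fell by 2.43 and the receptor EPHA2 by 2.27, but both were dim with U0126 and EPHA2 was dim in the HGF group as well. PHLDA1 (-1.03) and ETV1 (-0.94) completed the list. ETV4, ETV5, FOSL1 and SPRY4 were on the array but under the expression filter, and DUSP4, SPRY2 and CYP1A1 had no probe set naming 1 gene.

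All 11 tested immediate early genes of 21 listed also fell, with a median of -1.41; EGR1, IER3 and MYC belong to both lists. FOS, a subunit of the AP-1 transcription factor, read 14.89, 14.70, 14.86 and 14.81 with HGF and 12.46, 12.36 and 12.39 with U0126. It fell by 2.42 (SE 0.10, adjusted p = 2.73e-16) and lay 1.64 below control (SE 0.10, adjusted p = 1.41e-11), whose arrays read 13.86 to 14.22. EGR1, a zinc-finger transcription factor, took a different order of groups: 8.49 to 9.17 in control, 6.83, 7.38, 6.81 and 7.43 with HGF, and 4.36, 4.39 and 4.42 with U0126. EGR1 fell by 2.72 (SE 0.29, adjusted p = 1.64e-08) against HGF and was 4.44 below control (SE 0.29, adjusted p = 3.13e-11). KLF6 fell by 3.48 (SE 0.12) and KLF4 by 1.69 (SE 0.17), both zinc-finger factors. Among 14 tested components of the ERK cascade 9 fell and 1 rose. HRAS fell by 2.05, the HGF receptor MET by 1.52 (SE 0.18, adjusted p = 5.93e-08), RASA1 by 1.16 and the kinase RPS6KA1 by 1.12, while the adaptor GAB1 rose by 0.72, a call lost without U0126 replicate 2 (adjusted p = 0.0924). MET read 9.84 to 10.10 with HGF and 8.37 to 8.60 with U0126.

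Genes of matrix turnover, adhesion and the mesenchymal state were mostly lower with U0126. Of 14 tested matrix proteases and inhibitors 11 fell and none rose, with a median of -1.77. Beside TIMP1 and MMP13 they included the protease inhibitors TFPI2 (-5.77) and SERPINE2 (-3.84). MMP1 read 5.27, 6.15, 3.66 and 7.42 with HGF and 3.25, 3.23 and 3.28 with U0126, and fell by 2.37 (SE 0.48, adjusted p = 0.000173) with a wide spread among HGF arrays. PLAU, the urokinase protease, fell by 0.71 (SE 0.27, adjusted p = 0.0294) with overlapping arrays, and its call was lost without a filter (adjusted p = 0.0765), with the RNA-quality index as a covariate (adjusted p = 0.358), and when U0126 replicate 1 (adjusted p = 0.131) or HGF replicate 1, 3 or 4 was left out (adjusted p = 0.0721, 0.0848 and 0.0617).

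Of 10 tested mesenchymal genes 8 fell and 1 rose. SNAI2 (Slug), a repressor of epithelial genes, read 13.40, 13.05, 13.22 and 13.27 with HGF and 8.37, 8.60 and 8.29 with U0126. It fell by 4.82 (SE 0.13, adjusted p = 8.36e-20) and lay 0.53 above control (SE 0.13, adjusted p = 0.00588), a call lost without U0126 replicate 2 (0.0568). N-cadherin (CDH2) fell by 3.24, S100A4 by 3.04 and the hyaluronan receptor CD44 by 1.95. TGFBI, a secreted matrix protein, went the other way: it read 4.77 to 4.99 with HGF and 7.74, 8.15 and 8.17 with U0126, a rise of 3.13 (SE 0.14). Among 19 tested integrins, laminins and related receptors 14 fell and 3 rose. The laminin chains LAMA3 (-4.20) and LAMB3 (-2.88) and the integrin subunits ITGA6 (-3.93) and ITGA2 (-2.16) fell the most. LAMA3 read 15.15 to 15.24 with HGF and 10.92, 10.99 and 11.07 with U0126, while ITGA1 (2.17), ITGB8 (1.23) and ITGB5 (0.34) rose. The call of ITGB5 was lost in 10 alternatives, among them leaving out any U0126 array (adjusted p = 0.0621, 0.0642 and 0.14) or HGF replicate 2, 3 or 4 (0.111, 0.0674 and 0.0783). In the actin and YAP list 10 of 13 tested genes fell, led by the crosslinker ACTN1 (-2.99) and by TAGLN2 (-1.85), and CCN2 alone rose (0.75).

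Junction genes went both ways. Of 23 tested, 11 fell and 5 rose, and 4 of the largest falls were DSG3 (-6.51), the catenin CTNND1 (-2.84), CLDN4 (-2.23) and plakoglobin JUP (-1.87). Tight-junction genes were on both sides: CLDN4 fell, whereas CLDN2 (4.07), F11R (1.20), CGN (1.03) and OCLN (0.39) rose. CLDN2, a channel-forming claudin of leaky tubules, read 4.18, 3.60, 4.16 and 4.54 with HGF and 8.19, 8.12 and 8.26 with U0126. Its control arrays, at 8.14 to 8.71, overlapped the U0126 arrays.

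**Figure D3:**
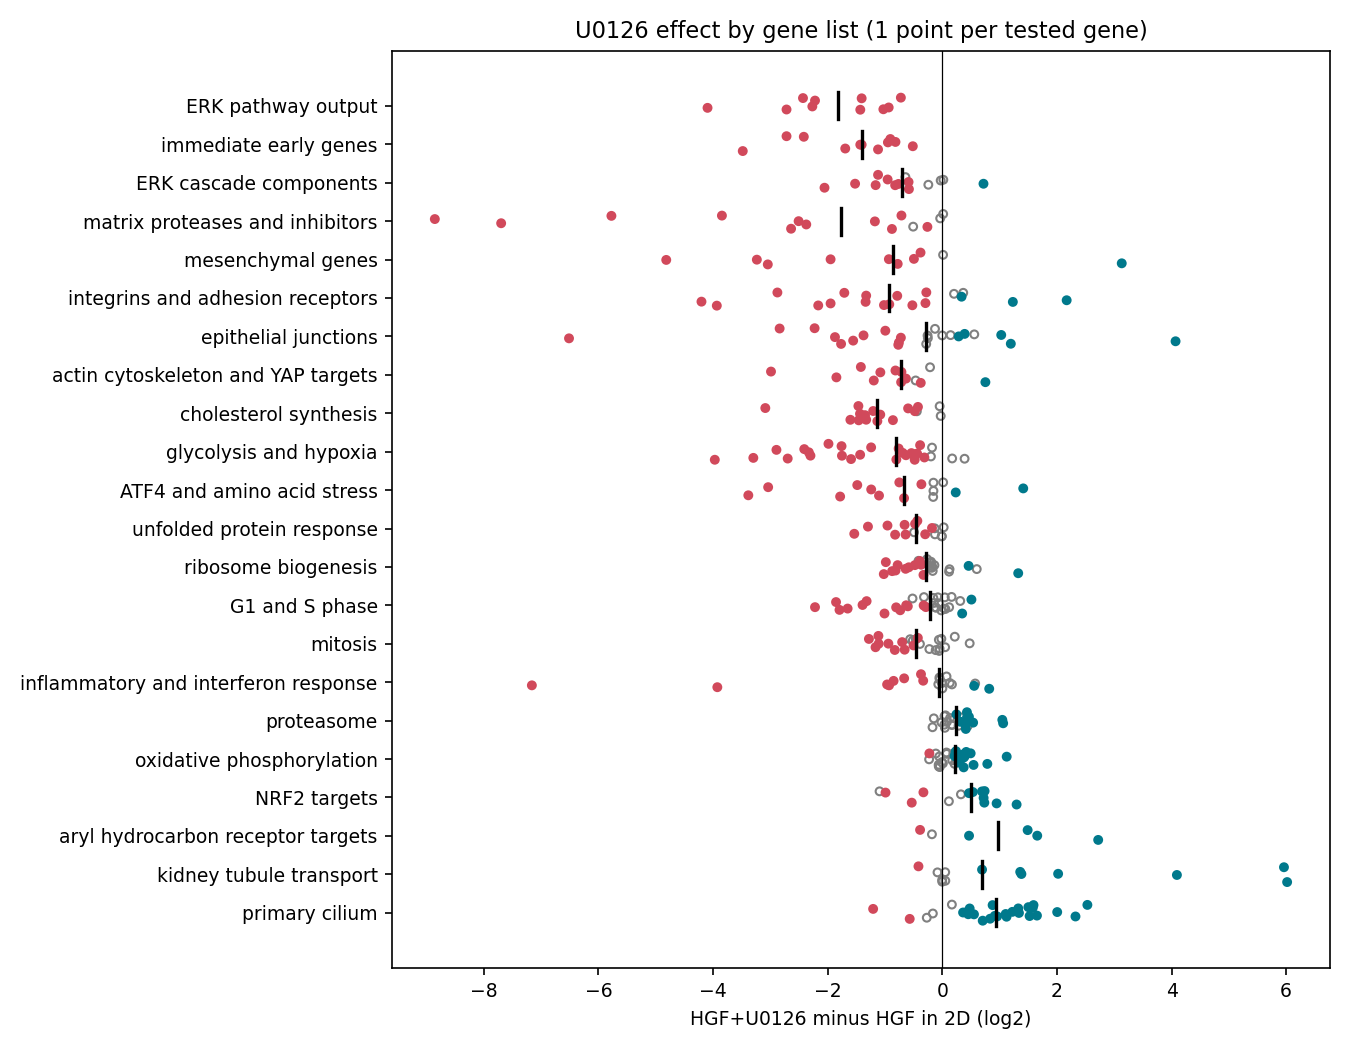
Change with U0126 in HGF-treated 2D cells (log2, x axis) for each tested gene of 22 lists (y axis); filled points passed at an adjusted p under 0.05, open points did not, and the black bar is the list's median. ERK output, matrix protease and cholesterol lists lie to the left (medians -1.83, -1.77 and -1.13) and the primary cilium list to the right (median 0.94).

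Cell-cycle genes responded less than CCND1. Of 30 tested genes of G1 and S phase 13 fell and 2 rose, with a median of -0.22. The falls were largest for CCND1, CDC6 (-1.85), which loads the replicative helicase, CCND2 (-1.79) and CDC45 (-1.65), while PCNA (0.35) and CCNE1 (0.51) rose. PCNA lost its call without HGF replicate 4 (adjusted p = 0.106) and without U0126 replicate 2 (0.0618) or 3 (0.0699). The shares that passed, 15 of 30 here and 10 of 23 for mitosis, were at or below the 51.8% of all genes. Against control, in a comparison that shares the U0126 arrays, 23 of the 30 were higher and 1 lower with HGF and U0126, where 9.83% of all genes were higher and 8.71% lower. CDC6 read 3.54 to 4.71 in control, 8.36 to 8.53 with HGF and 6.63, 6.76 and 6.29 with U0126, and so lay between both other groups without overlap. Of 23 tested mitosis genes 10 fell and none rose, with a median of -0.46, and 19 were higher than control, none lower. BUB1B, a spindle checkpoint kinase, read 7.36 to 8.31 with HGF and 7.51, 7.99 and 7.79 with U0126, which overlap, against 3.97 to 6.08 in control. Its difference from control was 2.84 (SE 0.33, adjusted p = 6.02e-07). KIF23 (-1.28), KIF2C (-1.16), PRC1 (-1.11) and AURKA (-1.11), all proteins of the spindle or midzone, fell the most. In 8 tested inhibitors of the cell cycle 4 fell, CDKN1A, CDKN2B (-3.74), GADD45B (-1.76) and CCNG2 (-0.72; adjusted p = 0.105 with the quality covariate), and CDKN2C (0.93) and CDKN2D (0.79) rose.

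Genes of central and lipid metabolism were also mostly lower with U0126. Of 27 tested genes of glycolysis and the hypoxia response 23 fell and none rose, with a median of -0.80. EGLN3, an oxygen-sensing hydroxylase, fell by 3.97, the oxidase ERO1A by 3.30, the glycolytic regulator PFKFB3 by 2.89 and NDRG1 by 2.70. ERO1A read 13.78 to 14.02 with HGF, 10.59, 10.79 and 10.39 with U0126 and 9.86 to 10.20 in control, a remainder of 0.57 over control (adjusted p = 9.27e-05). EGLN3 varied widely with U0126, at 5.84, 6.49 and 3.55, all below the HGF arrays at 9.10 to 9.49. Of 17 tested genes of cholesterol synthesis 14 fell and none rose, with a median of -1.13, led by INSIG1 (-3.09), DHCR7 (-1.60), FDFT1 (-1.46) and FDPS (-1.46). INSIG1, the sterol-regulated retention protein, read 11.51 to 11.78 with HGF and 8.48, 8.60 and 8.52 with U0126. Of 15 ATF4 and amino acid stress genes 9 fell, with the transcription factor DDIT3 (-3.38) and the mitochondrial folate enzyme MTHFD2 (-3.04) first, and 2 rose, VLDLR (1.41) and MARS1 (0.23). The call of MARS1 was lost in 8 alternatives, among them leaving out U0126 replicate 1 (adjusted p = 0.182) or 3 (0.0643) and HGF replicate 2 (0.132) or 3 (0.0979). Of 29 tested genes of oxidative phosphorylation 14 rose and 1 fell, by small amounts (median 0.21), and 22 rose after the values were quantile-normalized once more. Of 25 proteasome genes 10 rose and none fell (median 0.25), and 16 rose with the RNA-quality index as a covariate. Both lists passed at about or below the share of all genes.

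Genes of the primary cilium, the sensory organelle of kidney epithelium, were mostly higher with U0126. Of 28 tested 23 rose and 2 fell, with a median of 0.94. The arrays of 26 of the 28 did not overlap between groups, where those of 58.5% of all genes did not. RPGRIP1L, a transition zone protein, read 3.91, 3.55, 3.25 and 3.56 with HGF and 6.01, 6.04 and 6.24 with U0126, a rise of 2.53 (SE 0.19, adjusted p = 2.1e-11). TCTN2, of the same zone, rose by 2.32 (SE 0.12), and the transport proteins IFT140 and IFT172 by 2.00 (SE 0.39) and 1.65 (SE 0.14). AHI1 (-1.21) and BBS2 (-0.57) fell. Of the 28, 3 were lower and none higher than control with U0126, and the median difference from control was -0.06. In the kidney tubule list 7 of 13 tested genes rose and 1 fell, where 25% of all genes rose and 26.8% fell. The arrays of 7 of the 13 did not overlap between groups, near the share of all genes. CLTRN, PDZK1, the secretin receptor SCTR (4.09) and the phosphatase ALPL (2.02) rose the most, and the cotransporter SLC12A2 fell (-0.42). The call of SLC12A2 was lost without HGF replicate 3 (adjusted p = 0.0761), without U0126 replicate 2 (0.0713) and with the quality covariate (0.115). ALPL with U0126 was still 1.20 below control.

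**Figure D4:**
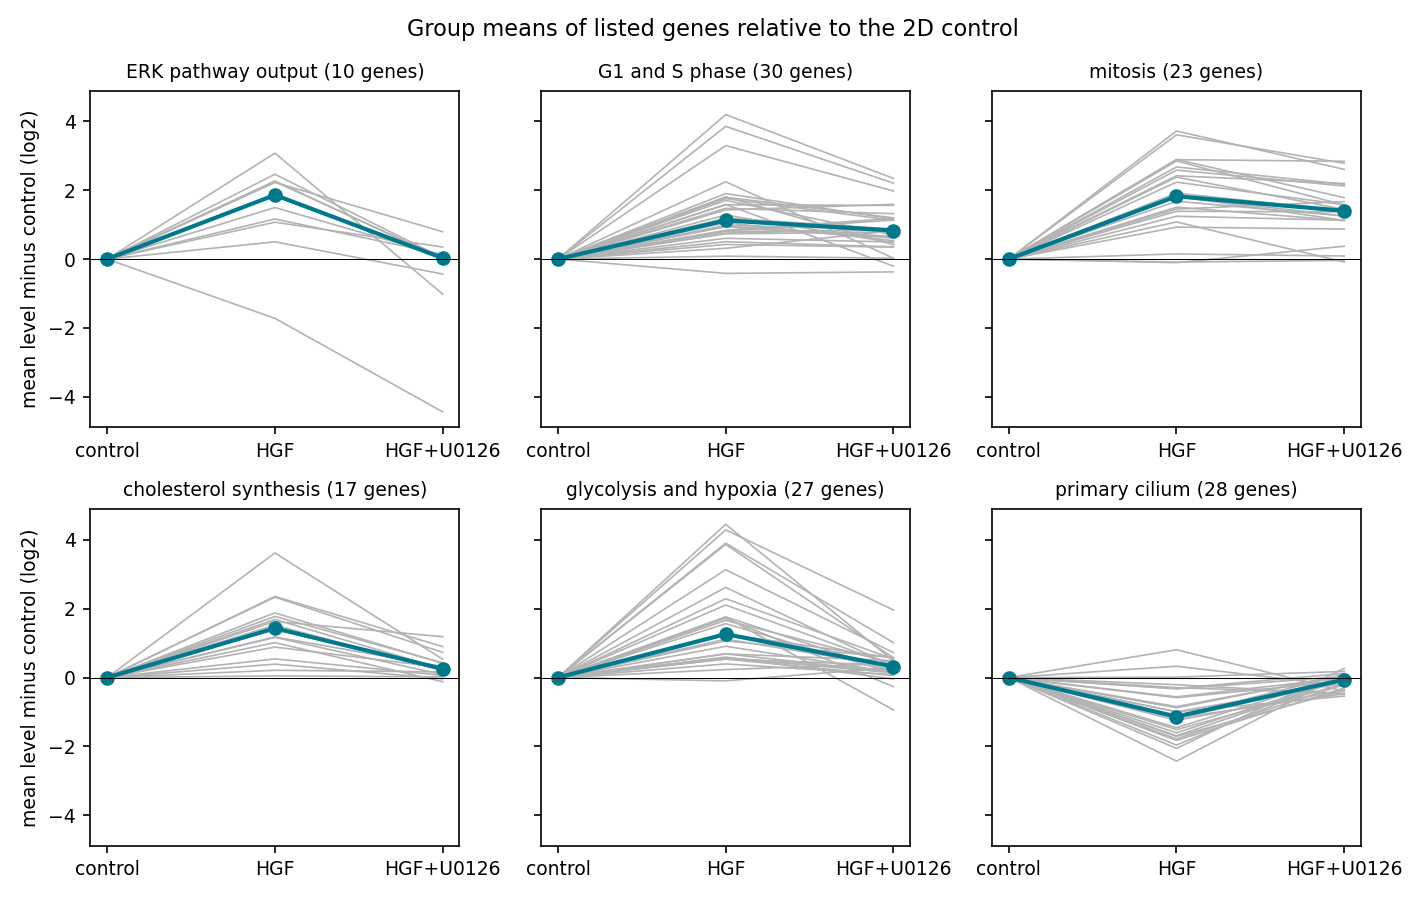
Mean level minus the control mean (log2, y axis) in control, HGF and HGF+U0126 2D cells (x axis) for the tested genes of 6 lists; grey lines are genes and the coloured line is the median. The median of G1 and S phase and of mitosis stays above control with U0126 (0.83 and 1.40), that of the primary cilium list lies at -0.06, and that of ERK output at 0.03.

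HGF alone, against control, changed 3987 of the 7052 genes (56.5%), 2051 upward (29.1%) and 1936 downward (27.5%); this comparison shares the HGF arrays with that of U0126. In it ERK output had 8 of 10 genes higher and 1 lower, G1 and S phase 28 of 30 higher and 1 lower, mitosis 20 of 23 higher, glycolysis and hypoxia 25 of 27 higher, cholesterol synthesis 15 of 17 higher, and the primary cilium 2 of 28 higher and 23 lower.

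Cells given HGF with U0126 were not at the control level throughout. Against control 693 of 7052 genes were higher and 614 lower, and of the probe sets 1400 were higher (8.45%) and 1421 lower (8.58%). The genes with the largest such differences were chosen after their values were seen. FABP1, the liver-type fatty acid binding protein, read 3.28 to 3.91 in control, 2.73, 3.47, 3.40 and 2.75 with HGF, and 7.25, 7.70 and 8.0 with U0126. It was thus dim in both groups without inhibitor and 4.14 above control (SE 0.25, adjusted p = 7.34e-12) with U0126. FILIP1L (3.54), the lysosomal lipase LIPA (3.37) and the claudin CLDN10 (3.31) were likewise lower in both groups without an inhibitor, as was TGFBI (2.88). NQO1, a quinone reductase, had another: 8.93 to 9.24 in control, 12.22 to 12.42 with HGF and 12.72 to 12.83 with U0126. It rose with U0126 by 0.47 (SE 0.11, adjusted p = 0.000952) over an already high HGF level. Lower than control were EGR1, SBSN (-3.62), SELENOP (-2.80), ADAM28 (-2.68), TBXAS1 (-2.68), SYT13 (-2.53), CCDC171 (-2.35) and complement C3 (-2.26). SELENOP, TBXAS1 and CCDC171 did not pass between U0126 and HGF, with differences of 0.21, -0.11 and 0.31.

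Of 6 tested genes of the aryl hydrocarbon receptor, a ligand-activated transcription factor for planar compounds, 4 rose and the receptor AHR itself fell (-0.39), a call lost without U0126 replicate 1 (adjusted p = 0.0902) or 2 (0.119) and with the compared groups alone (0.0947). CYP1B1, a cytochrome P450 induced by that receptor, read 11.37, 11.53, 11.65 and 11.29 with HGF and 14.30, 13.77 and 14.47 with U0126. It rose by 2.72 (SE 0.22, adjusted p = 6.44e-11) and lay 2.11 above control (SE 0.22, adjusted p = 6.9e-08). TIPARP rose by 1.49 (SE 0.41, adjusted p = 0.00361), UGT1A6 by 1.66 at dim levels, and NQO1 as given above. Of 14 tested NRF2 targets, the antioxidant genes, 8 rose and 3 fell, led by ferritin FTH1 (1.30) and GCLC (0.95) upward and TXN (-0.99) downward.

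U0126 and PD-98059 were compared directly in HGF-treated 2D cells, as 1 pair with p-values adjusted over all probe sets. With no dose stated, compound and dose cannot be told apart. Of 16571 probe sets 269 passed (1.62%), and of 7052 genes 65 were higher with U0126 (0.922%) and 65 lower (0.922%), together 1.84%. Counts in this pair changed with the fit, to 32 probe sets higher and 37 lower when the compared groups were fitted alone, against 140 (0.845%) and 129 (0.778%). DKK3, a secreted Wnt pathway modulator, read 7.50, 7.94, 7.91 and 8.06 with PD-98059 and 5.16, 4.77 and 4.25 with U0126, a difference of -3.13 (SE 0.25, adjusted p = 2.34e-08). FGFBP1, which releases fibroblast growth factors from the matrix, differed by -2.27 (SE 0.36, adjusted p = 0.000645), at 5.98, 6.26 and 4.08 against 7.39 to 8.02, and it did not pass with the compared groups alone (adjusted p = 0.129). SYT13 (-2.17), HEPH (-1.92) and GPR18 (-1.69) were also lower with U0126. HOGA1 (1.74), IL13RA2 (1.64), CLIC3 (1.35), DDX39B (1.29) and FILIP1L (1.21) were higher, of which IL13RA2 (adjusted p = 0.0942) and DDX39B (adjusted p = 0.181) did not pass with the compared groups alone.

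Some of the genes described above also differed between the inhibitors. DUSP6 was lower with U0126 (difference -0.54, SE 0.10, adjusted p = 0.00233), FOS differed by -0.57 (SE 0.10, adjusted p = 0.00196), SNAI2 by -1.09 (SE 0.13, adjusted p = 1.4e-05) and S100A2 by -0.96 (SE 0.12, adjusted p = 2.65e-05). CDKN1A was higher with U0126, by 0.85 (SE 0.21, adjusted p = 0.0319). Of 17 cholesterol genes 5 were lower with U0126 than with PD-98059 and none higher, with DHCR7 at -0.94 and INSIG1 at -0.69, and of 23 mitosis genes 4 were lower and none higher, with AURKA at -0.77 and KIF23 at -0.56. With the compared groups fitted alone, DUSP6 (adjusted p = 0.135), FOS (0.0693), CDKN1A (0.276), DHCR7 (0.0628), INSIG1 (0.0979), AURKA (0.142) and KIF23 (0.213) did not pass by limma. CDKN1A also did not pass without U0126 replicate 1 (adjusted p = 0.0887) or 2 (0.191) or PD-98059 replicate 2 (0.0935) or 3 (0.127). KIF23 did not pass without U0126 replicate 1 (adjusted p = 0.231) or 2 (0.0626) or PD-98059 replicate 3 (0.0984) or 4 (0.0628), nor AURKA without U0126 replicate 1 (0.0502). No difference passed for CCND1, EGR1, DUSP5, TIMP1, ISG20, FABP1 or CYP1B1, and the unadjusted 95% interval of U0126 minus PD-98059 was -0.20 to 0.32 for CCND1, -0.62 to 0.59 for EGR1, -1.05 to -0.17 for DUSP5, 0.09 to 1.33 for TIMP1, -0.21 to 0.23 for ISG20, -0.59 to 0.44 for FABP1 and -0.18 to 0.71 for CYP1B1. These intervals do not show that the compounds act alike.

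The same comparison in 3D collagen culture rests on other arrays. There 1875 genes rose (26.6%) and 1765 fell (25%), together 51.6%, and 8166 probe sets passed (49.3%). Of the genes that rose in 2D, 1038 also rose in 3D, 58.9% of the 2D list and 55.4% of the 3D list, and 964 fell in both, 50.9% and 54.6%. Calls went opposite ways for others: 136 genes rose in 2D and fell in 3D, and 193 fell in 2D and rose in 3D. Across the 7052 genes, which are not independent replicates, the effects in 2D and 3D correlated with Pearson's r = 0.589 and Spearman's rho = 0.527. In a test of the difference itself, 1152 genes were more positive in 2D (16.3%) and 1521 more negative (21.6%), together 37.9%, as were 2750 (16.6%) and 3302 (19.9%) probe sets. The 3D HGF arrays were less alike, with correlations of 0.964 to 0.991 and quality indices of 1.09 to 2.46, replicates 1 and 4 having the lowest mean correlation with the others. Without those 2 arrays 1313 genes were more positive and 1430 more negative.

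TIMP1 fell as far in 3D, by 9.18, and the difference between cultures was 0.33 (SE 0.43, adjusted p = 0.596). PDZK1 (5.96 in 2D and 6.16 in 3D), FABP1 (4.56 and 4.92) and LAMA3 (-4.20 and -3.93) did not pass that test either. ISG20, by contrast, changed by -7.16 in 2D and by -0.02 in 3D, where its HGF arrays averaged 1.72, a difference of -7.14 (SE 0.15, adjusted p = 7.21e-22). Among the 15 largest falls in 2D the difference passed for 13, all larger in 2D, and among the 15 largest rises for 7, all larger in 2D; genes picked for a large 2D change tend to be larger there by that choice. MMP1 fell by 2.37 in 2D and by 6.98 in 3D, a difference of 4.60 (SE 0.68, adjusted p = 6.8e-06). In 2D its HGF arrays were low and widely spread and its U0126 arrays dim, as given above, which limits the fall that could be read there. ADM, a vasoactive peptide induced by hypoxia, fell by 1.59 in 2D and rose by 2.29 in 3D, a difference of -3.89 (SE 0.23, adjusted p = 1.88e-12), and TMEM45B likewise changed by -2.91 and 2.59. MMP1, ADM, TMEM45B and the genes that follow were picked by size among genes whose U0126 and HGF arrays did not overlap in either culture. Within that choice FGFBP1 (-3.57 and 1.34), KLHL24 (-0.46 and 3.34) and ANGPTL4 (-3.07 and 0.64) had the other most negative differences. TEX26, HPDL, SLC39A4 and SCTR had the other most positive. Over all genes the difference ran from -7.70 to 5.16, so genes outside that choice, such as ISG20, differed more. These 10 differences passed without 3D HGF replicates 1 and 4 as well.

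By list, 21 of 28 primary cilium genes were higher and none lower in 3D. The difference between cultures passed for 10 of the 28, more positive in 2D for 3 and more negative for 7, where 37.9% of all genes passed. AHI1 (-1.21 in 2D and 0.21 in 3D) and BBS2 (-0.57 and 0.75) were among the 7. In the glycolysis and hypoxia list 17 of 27 genes were more negative in 2D than in 3D and 1 more positive, and in the inflammatory and interferon list 12 of 19 were more negative and none more positive. In that list 8 genes fell in 2D, PTGS2 (cyclooxygenase-2) by 3.92 and ISG20 first, and 2 rose, whereas 10 rose and 2 fell in 3D. The chemokines CXCL8, CCL2 and CCL7, chosen after their values were seen, changed by 0.00, 0.57 and -0.05 in 2D, none passing, and by 7.70, 5.40 and 5.01 in 3D. For ribosome biogenesis 11 of 26 genes fell and 2 rose in 2D, against 24 and 1 in 3D, and 17 differed between cultures, all more negative in 3D. In 2D both this list and the inflammatory list passed at about the share of all genes, 51.8%. Without 3D HGF replicates 1 and 4 15 genes of glycolysis and hypoxia were more negative in 2D and 1 more positive, 12 of the inflammatory list more negative, and 20 of ribosome biogenesis more negative in 3D.

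**Figure D5:**
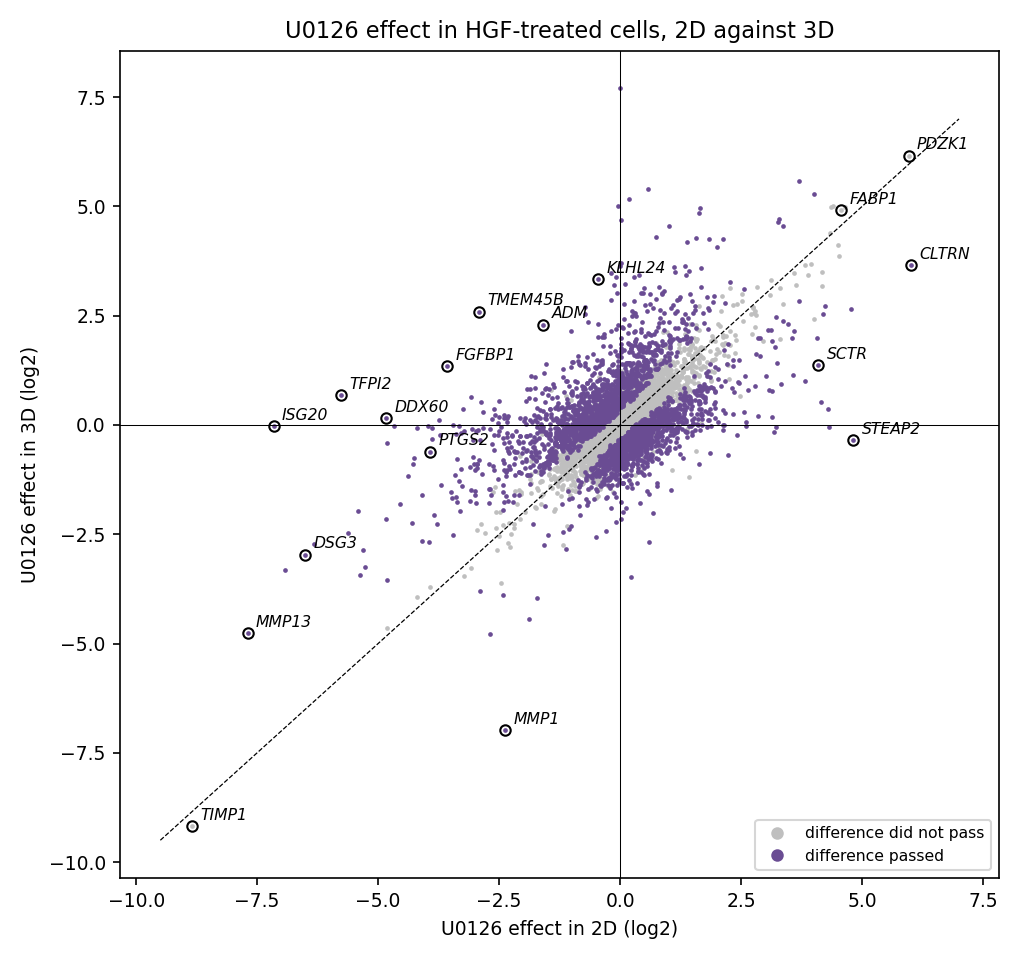
U0126 effect in HGF-treated cells (log2) in 2D (x axis) and 3D (y axis), 1 point per gene over 7052 genes, coloured by whether the difference between cultures passed; the dashed line marks equal effects. TIMP1, PDZK1 and FABP1 lie near the line, ISG20 lies near 0 in 3D, and ADM and TMEM45B fell in 2D and rose in 3D.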

How the data were processed

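Total RNA of 29 samples was measured on Affymetrix canine arrays. The authors deposited 1 log2 value per probe set and array, already normalized. Tools named in the submitters' processing notes, without role or order, are GCRMA, MAS5, Partek 6.6 and Affymetrix Expression Console 1.1. The values were used without further normalization. Of 42924 probe sets that are not controls, those at log2 5 or more in at least 3 of 29 arrays were tested, 16571 in all: 12186 had 1 gene symbol in the platform annotation (11568 symbols updated by gene identifier), 238 several and 4147 none. Of 3633 genes with several tested probe sets, 30 had opposite calls.

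Group means of 8 groups were fitted with limma 3.58.1 in R 4.3.3 (lmFit, eBayes with trend), two-sided, with Benjamini-Hochberg adjustment over all probe sets within each of 6 comparisons and a threshold of 0.05. The fit was tested on simulated data. The number of arrays limits the precision. Named genes had to pass with non-overlapping arrays: the 15 largest changes each way for U0126, the 5 largest for the inhibitor pair and the culture difference, up to 4 each way per list, and a set of ERK-related and other genes. Genes described beyond that rule were chosen after their values were seen. Members and lists were chosen with earlier results of these data known. Lists are described by counts and medians, with no set test. Alternatives changed the filter, variance trend, arrays fitted, normalization, array weights, replicate block, quality covariate, probe-set summary and each replicate; leaving out 3D HGF replicates 1 and 4 was added after seeing the data.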

Additional observations from a re-analysis of the deposited data

Results flagged for a closer look

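In 9 of 138 groups of 4 arrays screened, 1 array lay far from the other 3 (Dixon's ratio); chance gives about 1 in 20. These were FABP1 with PD-98059 (8.23, the others at 7.48 to 7.60), C9H17orf97 with HGF (1.76, next 2.54), DRC1 with HGF (3.33, next 3.57), CCDC160 in control (8.02, next 7.85), MMP13 with PD-98059 (4.92, next 4.49), HEPH with HGF (10.18, next 10.49) and in control (5.41, next 5.15), PLAU with PD-98059 (4.52, next 5.58) and TIPARP with HGF (8.42, next 9.37). None of the groups with U0126 has 4 arrays, so they were not screened.

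The effect of U0126 differed between 2D and 3D culture by the test of the difference itself in 10 picked genes. They had the largest differences among genes whose U0126 and HGF arrays did not overlap in either culture. Larger differences, such as that of ISG20, were passed over by this rule. The 2D effect minus the 3D effect was 4.60 for MMP1, 3.62 for TEX26, 3.27 for HPDL, 2.82 for SLC39A4 and 2.72 for SCTR. It was -5.50 for TMEM45B, -4.91 for FGFBP1, -3.89 for ADM, -3.80 for KLHL24 and -3.72 for ANGPTL4. HPDL did not pass in 2D alone (0.60, adjusted p = 0.0516 by limma).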

How the results depend on the processing

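For single genes the alternatives did not include the changed probe-set summary. Of 159 single genes called in the U0126 comparison in 2D, 147 kept their call and direction in every alternative run. The other 12 were PLAU, AHR, CCNG2, GAB1, ITGB5, MARS1, PCNA and SLC12A2, given with the results, and DDX39B, DKK3, EPCAM and KLHL24. Of 19 called against PD-98059, 9 kept their call, of 22 against control 20, and of 13 in the culture difference 13. In 3D, FGFBP1 (adjusted p = 0.0697 by limma) and ANGPTL4 (0.052) lost their call without HGF replicates 1 and 4. Of the 4269 probe sets higher and 4026 lower with U0126, 1444 and 1414 also changed at least 2-fold, and leaving out 1 replicate gave 3713 to 4133 and 3587 to 3907. Against control, 1400 and 1421 became 2176 and 2250 with array weights, and leaving out 1 replicate gave 984 to 1331 and 922 to 1378, the lowest of the lower calls without U0126 replicate 2. For U0126 against PD-98059, 140 and 129 became 32 and 37 with the compared groups alone, 254 and 246 after quantile normalization, 276 and 243 with array weights and 230 and 241 with the quality covariate, and the lower calls became 197 after median centring. Leaving out 1 replicate gave 75 to 167 higher and 70 to 208 lower: 86 and 75 higher without U0126 replicates 2 and 3, 70 lower without U0126 replicate 1, and 208 and 82 lower without PD-98059 replicates 2 and 4. The cause was not tested. Replicate numbers did not pair the samples: deviations of same-numbered U0126 and HGF arrays correlated at -0.296, -0.185 and 0.238 by title and -0.296, -0.432 and 0.145 by sample name. With a replicate block the U0126 comparison called 4224 and 3933 probe sets by title numbers and 4068 and 4032 by sample name numbers. Median centring moved the median U0126 effect by -0.0419. Low signal limits genes at dim levels, whose differences have no firm size.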

Other observations

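Further lists were read in HGF-treated 2D cells, where U0126 changed 51.8% of all genes. Of 20 tested genes of lysosomes and autophagy 9 rose and 4 fell (median 0.27): the acid glucosidase GAA rose by 1.22, CTSA by 0.91 and the autophagy gene GABARAPL1 by 0.90, while the cholesterol exporter NPC1 fell by 1.82 and the protease CTSD by 1.36. Of 16 tested genes of the unfolded protein response 10 fell and none rose (median -0.45), with DNAJC3 (-1.54) and DNAJB9 (-1.30) first. Of 13 tested apoptosis regulators 6 fell and 1 rose, near the share of all genes. BCL2A1, a survival factor, read 13.05 to 13.38 with HGF and 9.96 to 10.42 with U0126, and BCL2 rose by 1.31.

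Of 11 tested EGF receptor ligands and receptor tyrosine kinases 7 fell and 3 rose, with EGFR at -1.94 and the fibroblast growth factor receptors FGFR2 and FGFR4 at 1.09 and 1.29. Of 14 tested genes of the TGF-beta and BMP pathways 6 fell and none rose, below the share of all genes, with LTBP1 at -3.70, the activin subunit INHBA at -3.23 and BMP2 at -2.29. Of 13 tested genes of fatty acid synthesis 8 fell and 3 rose, with ACSL1 at -1.86 and the elongase ELOVL6 at 2.23.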
